A study of Mus musculus with 12 samples.

Results

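Midkine (Mdk), pleiotrophin (Ptn) and 6 further secreted factors with reported neuroprotective roles in the retina (Fgf2, Edn2, Lif, Bdnf, Cntf and Igf1) were examined in retinas that lack the homeobox transcription factor Otx2. The members were every probe set annotated with 1 gene symbol among these 8 genes, which gave 14 of the 45037 probe sets without controls, for 7 of the 8 genes. The group was chosen in part by a measured value, since Mdk was higher in the P12 Otx2 CKO retina. All values from the P12 comparison of the genotypes are therefore given as a description. Mdk had 1 probe set, Ptn 3, Fgf2 1, Edn2 1, Lif 2, Bdnf 2 and Igf1 4. The 1 probe set for Cntf carries several symbols on the array, so no value is given for Cntf.

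Total RNA of dissected mouse retinas was measured on 12 one-colour arrays in 4 groups of 3, Otx2 CKO and control at postnatal day 1 (P1) and at P12. Otx2 CKO mice carried 2 floxed Otx2 alleles and Cre under control of Crx, a gene switched on in photoreceptor precursors, and control mice carried the same floxed alleles without Cre. Both genotypes thus shared the floxed gene, and Cre was present in the Otx2 CKO retinas alone. Arrays are numbered 1 to 3 in each group after the number of the experiment, and the sources used here do not say whether each RNA came from 1 animal or several, so p-values measure the spread between these arrays.

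Midkine and pleiotrophin form a small family of heparin-binding growth factors that act on neurons and glia through the receptor phosphatase Ptprz1, the kinase Alk, low density lipoprotein receptor-related proteins and cell surface proteoglycans. Midkine is abundant in embryonic neural tissue and declines as the tissue matures. Leukemia inhibitory factor (Lif) is made by a subset of Muller glia in the injured mouse retina, and endothelin 2 (Edn2) and basic fibroblast growth factor (Fgf2) are known as genes that respond to photoreceptor stress. Brain-derived neurotrophic factor (Bdnf) signals through Ntrk2, ciliary neurotrophic factor (Cntf) through the gp130 receptor, and insulin-like growth factor 1 (Igf1) through Igf1r.

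Values are the signal intensities of probe sets, linear and in arbitrary units. The P12 arrays were brighter than the P1 arrays as a whole, with median signals of 24.3 to 56 against 5.1 to 7.9, and P12 Otx2 CKO replicate 1 was the brightest of all. The number of arrays limits the precision. Otx2, the targeted gene, had signals of 143.8, 107.8 and 154.0 in P1 Otx2 CKO retinas and 376.0, 358.0 and 282.9 in P1 control retinas. At P12 the Otx2 signals were 245.0, 166.8 and 107.9 in Otx2 CKO retinas and 1057.7, 1047.7 and 802.9 in control retinas. At neither age did an Otx2 CKO array reach the lowest control array. The log2 change of Otx2 was −2.44 at P12 (SE 0.27, adjusted p = 6.96e-05, limma) and −1.23 at P1 (SE 0.27, adjusted p = 0.207, limma, and 0.000785 with the replicate number as a block). Whether this probe set reads the deleted sequence is not known here.

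The upstream bases of Ptn and Igf1 are shown first, since these were the members besides Mdk with probe sets past the threshold at P12. Each run holds 250 bases on GRCm38.p6 (RefSeq), read 5′ to 3′ on the gene's strand, that end just before a transcription start. For Ptn this start is the outer end of the annotated gene. For Igf1 it is a start 2846 bases inside the annotated gene, so that the whole Igf1 window lies within the gene. Capitals mark the CCAAT box, a common promoter element, read on either strand (ATTGG is CCAAT on the other strand).
Ptn (chr6:36810180-36810429, minus strand): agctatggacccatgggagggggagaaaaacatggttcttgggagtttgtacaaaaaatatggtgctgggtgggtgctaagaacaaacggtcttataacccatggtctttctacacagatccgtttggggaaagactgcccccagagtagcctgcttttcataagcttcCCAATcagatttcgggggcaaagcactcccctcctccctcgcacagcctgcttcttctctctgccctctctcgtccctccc
Igf1 (chr10:87860861-87861110, plus strand): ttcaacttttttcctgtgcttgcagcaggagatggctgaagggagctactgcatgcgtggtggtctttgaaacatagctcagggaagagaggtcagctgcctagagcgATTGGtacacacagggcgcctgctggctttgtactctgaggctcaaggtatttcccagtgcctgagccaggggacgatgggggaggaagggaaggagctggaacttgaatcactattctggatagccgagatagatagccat
The match starts 81 bases before that start in Ptn and 142 bases before it in Igf1. This motif was picked after the sequences were seen. CCAAT was found in 2 of the 13 promoter windows listed for these genes and in 33.8% of 32851 windows of the same length. The letters TAATCC, the core recognised by Otx and Crx proteins, were searched on both strands and do not overlap CCAAT. They were found in 1 of the 13 windows, that of Cntf, and in 6.25% of all windows. The matches are a description of these letters in these windows.

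Mdk was the member with the largest genotype difference at P12. Its signals were 874.7, 896.3 and 811.4 in P12 Otx2 CKO retinas and 96.8, 189.1 and 139.1 in P12 control retinas. The lowest Otx2 CKO array was thus far above the highest control array, and the groups did not overlap. The mean was 860.8 ± 44.1 in P12 Otx2 CKO retinas and 141.7 ± 46.2 in P12 control retinas (SD, n = 3 each), a ratio of 6.08. The log2 change of Mdk was 2.52 (SE 0.23) on the log2(signal + 16) scale, and 2.17 after quantile normalization of the 12 arrays. Within the replicate numbers it was 2.98, 2.15 and 2.42, so that each pair of arrays showed it. Because RNA of whole retinas was measured, fewer or more cells of a type and less or more RNA per cell cannot be told apart here or in any result that follows.

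At P1 the Mdk signals were 346.0, 401.5 and 365.1 in Otx2 CKO retinas and 603.2, 483.8 and 460.0 in control retinas. The groups did not overlap and the Otx2 CKO arrays were the lower ones, which is the opposite side from P12. The log2 change at P1 was −0.45 (SE 0.23) and did not pass the test (adjusted p = 0.915, limma). The median of all probe sets tested at P1 was −0.20, and after quantile normalization the change of Mdk was −0.23, with overlapping groups of 905.7 to 1138 in P1 Otx2 CKO retinas and 1011 to 1404 in P1 control retinas. Within the replicate numbers the deposited signals gave −0.77, −0.26 and −0.32.

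In the control retina the Mdk signal was lower at P12 than at P1. The P12 control arrays are among the values that chose Mdk, so its change with age is a description with no test. The 3 P12 control arrays lay below the 3 P1 control arrays, and the mean at P1 was 3.64 times that at P12. The log2 change between P12 control and P1 control was −1.79 (SE 0.23), while the median of all 18560 probe sets tested was 1.45, on arrays that were brighter at P12. With the 12 arrays quantile-normalized, which moved that median to −0.07, the change of Mdk was −3.41. In the Otx2 CKO retina the direction of the age difference depended on the scaling. On deposited signals the P12 Otx2 CKO arrays lay above the P1 Otx2 CKO arrays, with a log2 difference of 1.18 and a ratio of the means of 2.32. After quantile normalization they lay below, at 381.5 to 550.1 in P12 Otx2 CKO retinas and 905.7 to 1138 in P1 Otx2 CKO retinas, with a log2 difference of −1.01, and the difference was −1.23 with median scaling. The order of the 4 groups across ages turned with it. On deposited signals it was P12 Otx2 CKO, P1 control, P1 Otx2 CKO and P12 control, and after quantile normalization P1 control, P1 Otx2 CKO, P12 Otx2 CKO and P12 control. P12 control was the lowest group under each of the 3 scalings.

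**Figure D1:**
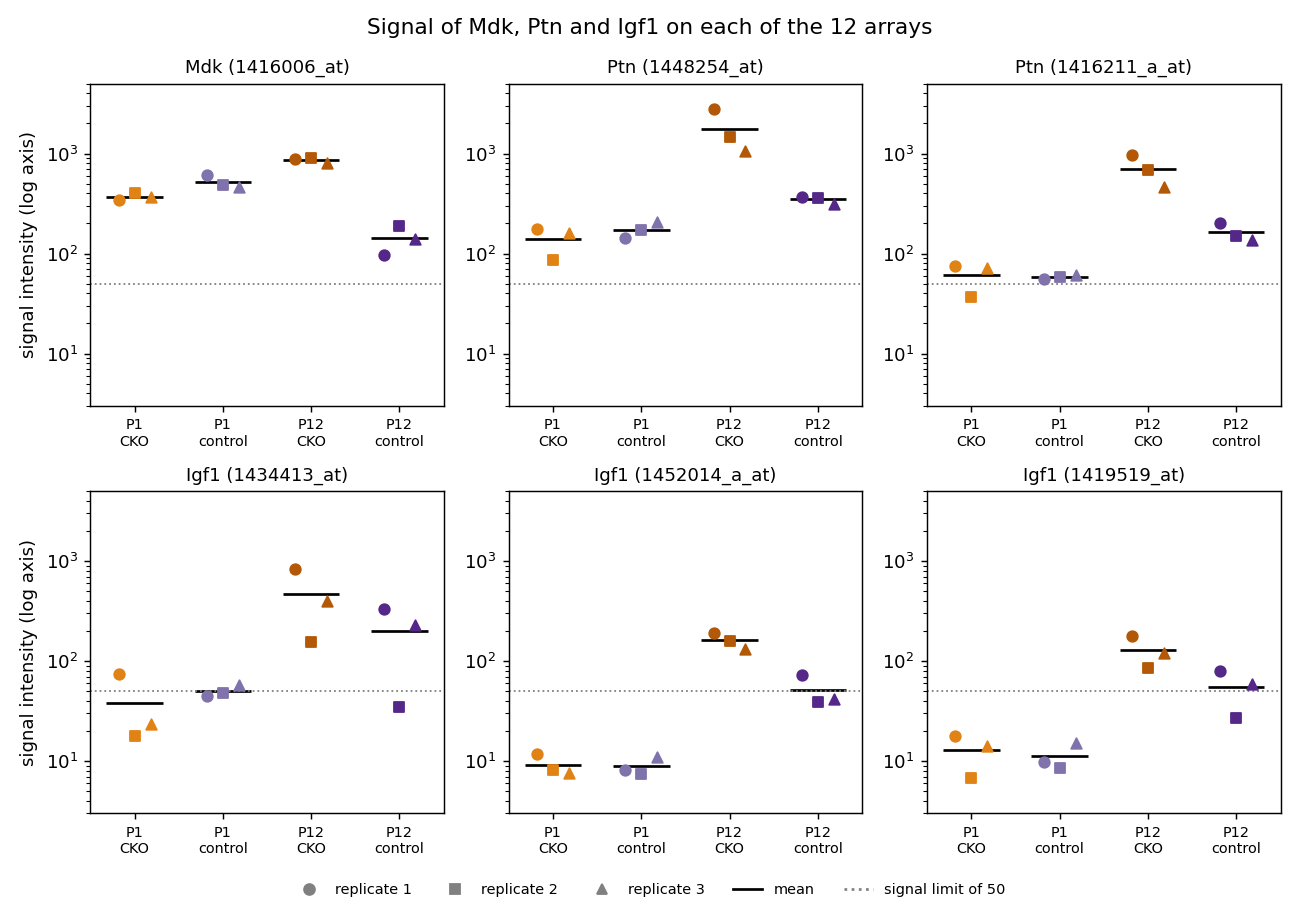
Signal intensity (log axis) of Mdk, 2 Ptn probe sets and 3 Igf1 probe sets on the 12 arrays. Each symbol is 1 array, its shape gives the replicate number, the black bar is the mean of the 3 arrays, and the dotted line is the signal limit of 50. Mdk lies between 811.4 and 896.3 in P12 Otx2 CKO retinas and between 96.8 and 189.1 in P12 control retinas, and replicate 2 is low for Igf1 1434413_at in both P12 groups.

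Ptn, the other member of the midkine family, also had higher signals in the P12 Otx2 CKO retina on 2 of its 3 probe sets. The brightest probe set, 1448254_at, read 2768.7, 1446.9 and 1060.9 in P12 Otx2 CKO retinas and 369.9, 358.2 and 315.4 in P12 control retinas. The groups were apart, and the Otx2 CKO arrays were spread over a wider range than the control arrays. The mean of this Ptn probe set was 1759 ± 896 in P12 Otx2 CKO retinas and 347.8 ± 28.7 in P12 control retinas (SD, n = 3 each), a ratio of 5.06. The log2 change was 2.17 (SE 0.33), and 1.79 without P12 Otx2 CKO replicate 1, which held the highest Ptn signal. Within the replicate numbers the change was 2.85, 1.97 and 1.70.

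The second Ptn probe set, 1416211_a_at, read 957.9, 677.2 and 463.2 in P12 Otx2 CKO retinas and 202.5, 150.7 and 135.6 in P12 control retinas. These groups were also apart, with a log2 change of 1.96 (SE 0.29) and a ratio of the means of 4.29. The third Ptn probe set, 1443173_at, was dim. It read 82.2, 26.9 and 43.9 in P12 Otx2 CKO retinas and 48.7, 28.3 and 32.3 in P12 control retinas. The groups overlapped there, with a log2 change of 0.29 (SE 0.31), so the 3 Ptn probe sets did not give the same picture. The files do not say which transcripts of Ptn each one reads.

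At P1 Ptn 1448254_at read 174.1, 86.4 and 159.1 in Otx2 CKO retinas and 142.6, 173.9 and 204.8 in control retinas. The groups overlapped, and the log2 change of −0.32 (SE 0.33) did not pass the test (adjusted p = 0.915, limma). Ptn 1416211_a_at changed by 0.01 (SE 0.29, adjusted p = 0.995, limma) at P1. With age in the control retina, the brightest Ptn probe set had a log2 change of 0.95 (SE 0.33, adjusted p = 0.0178, limma), which lay below the median of 1.45 of all probe sets tested, was −0.71 after quantile normalization (adjusted p = 0.0428, limma) and lost the call without P1 control replicate 1 (0.83, adjusted p = 0.0657, limma). The sign of the age change of Ptn therefore in control retinas depended on how the arrays were scaled, unlike that of Mdk there.

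Igf1 is a growth factor that microglia, among other cells, release in neural tissue. Its 4 probe sets had higher means in P12 Otx2 CKO retinas than in P12 control retinas by ratios of 2.26 to 3.13. The brightest, 1434413_at, read 837.6, 154.0 and 401.7 in P12 Otx2 CKO retinas and 334.6, 34.4 and 230.1 in P12 control retinas. Replicate 2 was the lowest in both genotypes, and the groups overlapped. The log2 change of this Igf1 probe set was 1.27 (SE 0.69). Within the replicate numbers it was 1.28, 1.75 and 0.76, all on the same side. Igf1 1437401_at had the same layout, with 742.0, 79.0 and 295.4 in P12 Otx2 CKO retinas and 305.3, 19.9 and 169.5 in P12 control retinas and a log2 change of 1.13 (SE 0.79).

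The remaining Igf1 probe sets were dimmer and less spread. Igf1 1452014_a_at read 192.3, 158.1 and 132.3 in P12 Otx2 CKO retinas and 73.1, 39.1 and 41.8 in P12 control retinas. Here the groups did not overlap, with a log2 change of 1.41 (SE 0.23). Igf1 1419519_at read 176.5, 86.2 and 120.3 in P12 Otx2 CKO retinas and 80.2, 27.0 and 59.4 in P12 control retinas, and its log2 change was 1.03 (SE 0.32). Its groups were apart by a narrow margin, 86.2 against 80.2. At P1 the Igf1 probe sets 1434413_at and 1437401_at changed by −0.42 (SE 0.68) and −0.37 (SE 0.78), with an adjusted p of 0.915 for each (limma). Within the replicate numbers at P1, Igf1 1434413_at gave 0.57, −0.92 and −0.90, so that replicate 1 went the other way from replicates 2 and 3.

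**Figure D2:**
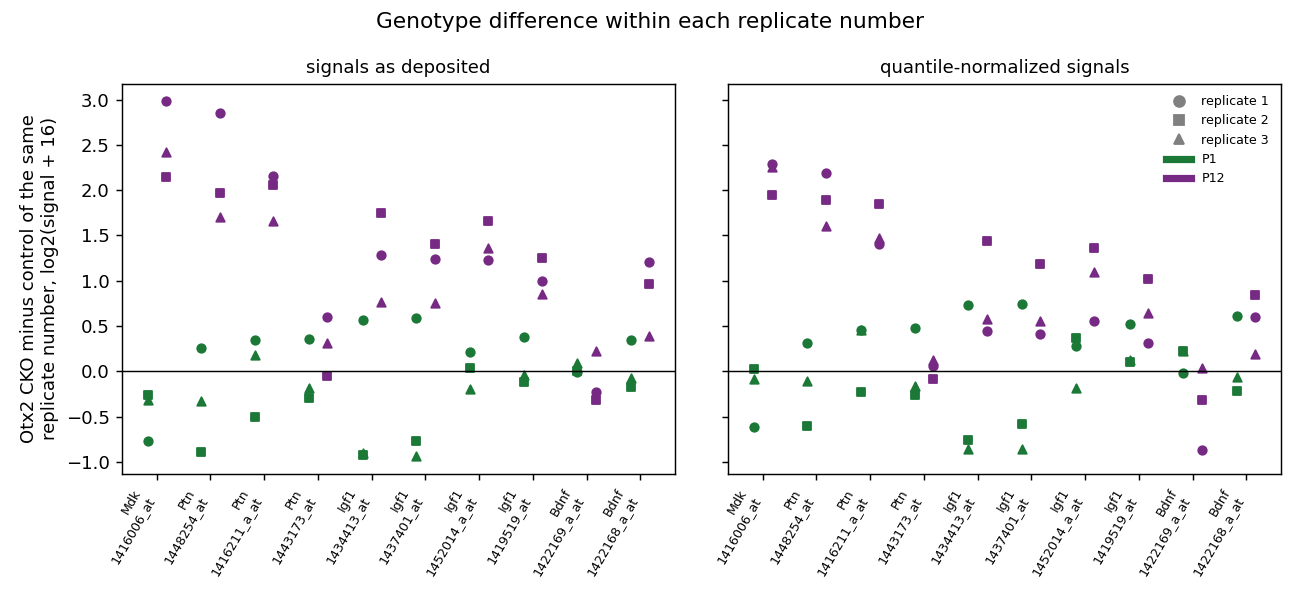
Difference between the Otx2 CKO and the control array of the same replicate number, on the log2(signal + 16) scale, for the 10 probe sets tested at P12, from deposited signals on the left and quantile-normalized signals on the right. Each symbol is 1 pair of arrays, in green for P1 and in purple for P12. The 3 pairs at P12 lie between 2.15 and 2.98 for Mdk on the left panel and between 1.95 and 2.29 on the right panel.

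The neurotrophin Bdnf was close to background at P1, where both probe sets read at most 7.3 on every array. At P12 the probe set 1422168_a_at of Bdnf read 122.6, 41.7 and 53.1 in Otx2 CKO retinas and 44.1, 13.6 and 36.7 in control retinas. The groups overlapped, with a log2 change of 0.85 (SE 0.34). Bdnf 1422169_a_at read 95.6, 17.3 and 42.6 in P12 Otx2 CKO retinas and 114.6, 25.5 and 34.4 in P12 control retinas, with a log2 change of −0.11 (SE 0.44). On this probe set replicate 1 was the highest and replicate 2 the lowest in both genotypes, and the change was 0.40 without P12 control replicate 1 and 0.32 without P12 Otx2 CKO replicate 2. With age in the control retina Bdnf 1422169_a_at had a log2 change of 1.59 (SE 0.44, adjusted p = 0.00434, limma), beside the median of 1.45.

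The factors best known from stressed photoreceptors were dim in all groups. Fgf2, Edn2 and both Lif probe sets had mean signals under 50 in every group and were not tested. Fgf2 read 14.7, 12.9 and 20.4 in P12 Otx2 CKO retinas and 8.4, 5.5 and 9.1 in P12 control retinas, so that the groups were apart at a low level. Edn2 read 18.0, 10.4 and 1.5 in P12 Otx2 CKO retinas and 21.2, 18.1 and 14.4 in P12 control retinas. These Edn2 groups overlapped, and the Otx2 CKO mean was the lower one. Lif 1421207_at read 17.5, 8.7 and 10.1 in P12 Otx2 CKO retinas and 7.0, 8.7 and 9.1 in P12 control retinas, with overlap, and Lif 1450160_at did not exceed 4.0 on any array. At P1 these Fgf2, Edn2 and Lif probe sets read at most 4.0 on every array. A signal this low does not show that a gene was not expressed.

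**Figure D3:**
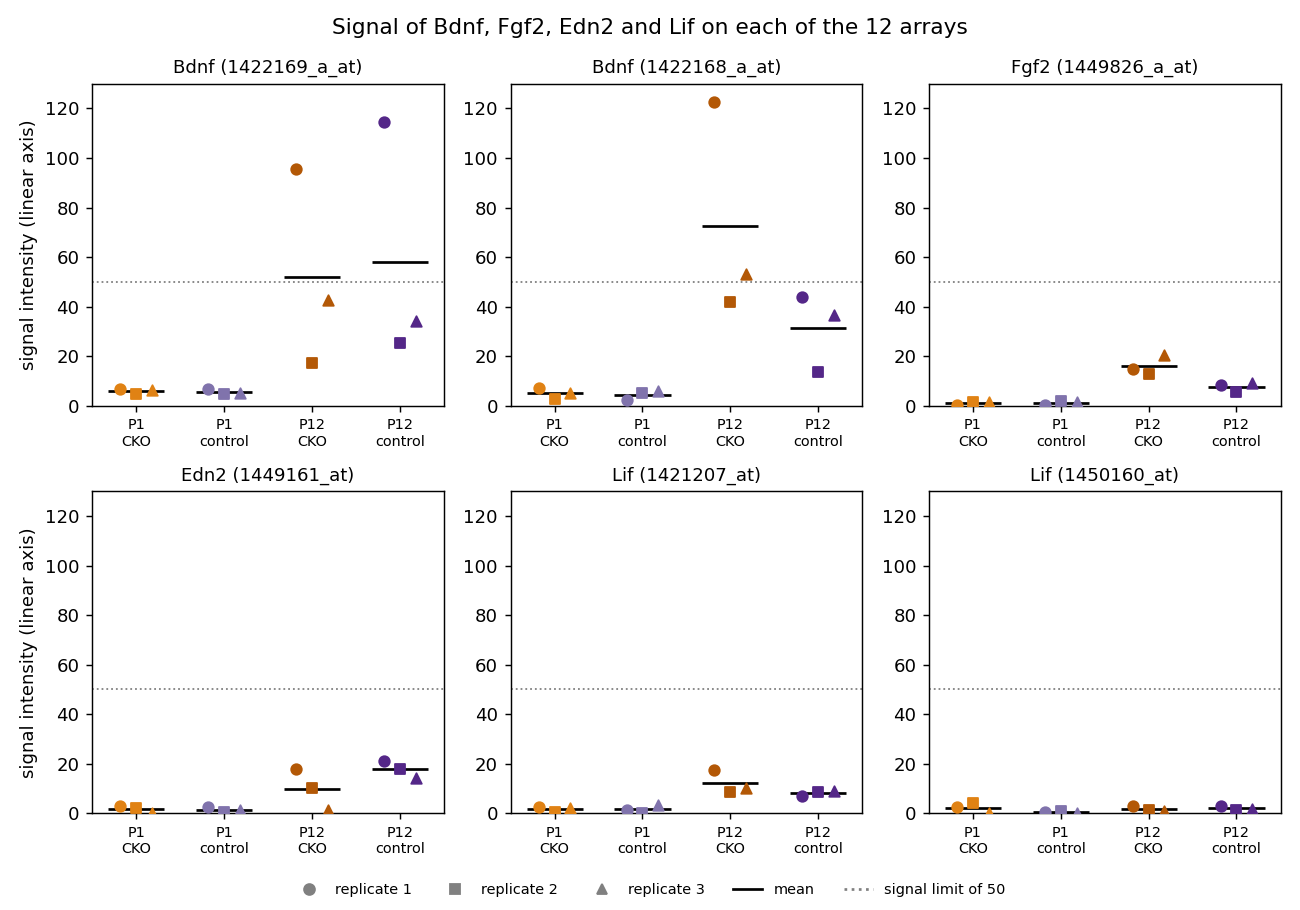
Signal intensity (linear axis) of the Bdnf, Fgf2, Edn2 and Lif probe sets on the 12 arrays, with symbols for the replicate number, a black bar for the mean of 3 arrays and a dotted line at the signal limit of 50. Fgf2, Edn2 and Lif stay below the limit on all arrays, and the highest Bdnf signals, 122.6 and 114.6, are both in replicate 1 at P12, 1 in each genotype.

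Of the 14 probe sets, 10 reached the signal limit of 50 in at least 1 P12 group, and 5 of them were past the threshold with higher values in P12 Otx2 CKO retinas, 1 of Mdk, 2 of Ptn and 2 of Igf1. Over all 21390 probe sets tested, 14.1% were called higher and 4.54% lower, and none of the 10 was called lower. Because the group was chosen from this comparison, nothing is read from the count. Ptn 1443173_at and Bdnf 1422168_a_at reached the limit only through their mean in P12 Otx2 CKO retinas. With the replicate number as a block 8 of the 10 were called higher, Mdk among them, beside 7757 of 21390 of all probe sets. Bdnf 1422169_a_at was not called with the block (adjusted p = 0.694, limma). The 8 therefore include Ptn 1443173_at or Bdnf 1422168_a_at, or both, which that limit selected toward higher values in Otx2 CKO retinas. Igf1 1419519_at lost the call under 14 of the 23 alternatives, with 0.66 after quantile normalization and 0.80 without P12 Otx2 CKO replicate 1. The other lost call was Igf1 1452014_a_at with each age fitted alone, and both Ptn probe sets held the call under every alternative tried. Mdk stayed past the threshold too, but it was chosen by this comparison, so that is a description and no test of it.

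At P1 none of the 5 probe sets tested (1 of Mdk, 2 of Ptn and 2 of Igf1) passed the test in either direction. The share called over all 8384 probe sets tested at P1 was 0.179%, and 145 of these had an unadjusted p under 0.05. None of the 5 passed under any alternative, the replicate block included. A change that misses the threshold here does not show that the genotypes were alike at P1.

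The P12 difference minus the P1 difference was computed for the same probe sets. It includes the comparison that chose Mdk, so it is a description too. It was 2.97 (SE 0.32) for Mdk, 2.49 (SE 0.47) for Ptn 1448254_at and 1.95 (SE 0.41) for Ptn 1416211_a_at, beside a median of 0.53 for all probe sets tested. For Igf1 it was 1.4 (SE 0.33) on 1452014_a_at and 1.68 (SE 0.97) on the brightest probe set, 1434413_at. Apart from Mdk, 3 of the 9 probe sets tested were called higher, beside 3.08% of all, and 7 of 9 were called with the replicate number as a block, beside 6224 of 21530. Igf1 1452014_a_at was among the 3, but it lost the call under 12 of 22 alternatives, with 0.84 after quantile normalization. Ptn 1416211_a_at lost it under 6 of 22, 5 of which left out 1 array.

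**Figure D4:**
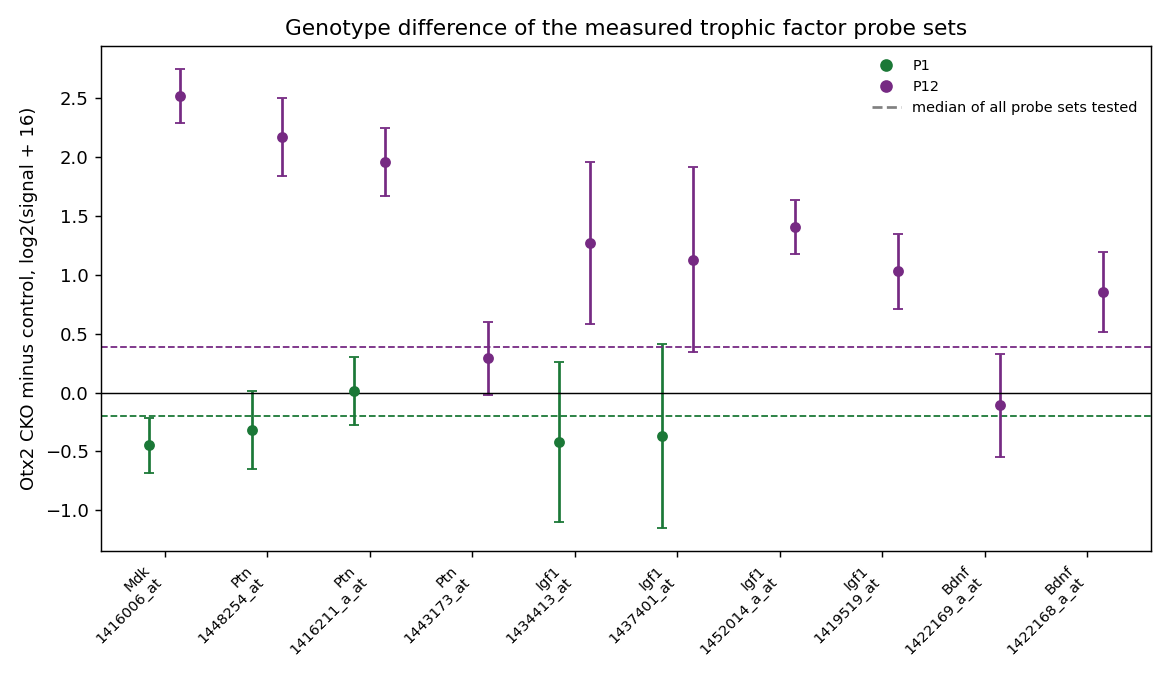
Difference between Otx2 CKO and control retinas on the log2(signal + 16) scale for the probe sets that reached the signal limit, at P1 (green) and P12 (purple). Points are the fitted differences, bars are 1 SE, and dashed lines are the medians of all probe sets tested, −0.20 at P1 and 0.39 at P12. Mdk stands at −0.45 at P1 and 2.52 at P12.

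With age in the control retina 5 of the 8 probe sets that reached the limit rose past the threshold. Mdk was lower at P12, as a description, since its P12 control values had a part in its choice. Those that rose were both bright Ptn probe sets, Igf1 1452014_a_at, Igf1 1419519_at and Bdnf 1422169_a_at, with log2 changes of 0.95 to 1.59. Over all probe sets tested 82.7% were called higher and 1.5% lower on deposited signals. After quantile normalization none of the 5 that still reached the limit was called higher, and Ptn 1448254_at was called lower. Mdk was lower there too, again as a description. Of all probe sets 3437 were called higher against 3465 lower.

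The counts for the gene lists that follow stand beside the shares over all probe sets at P12. These shares were 14.1% higher and 4.54% lower on deposited signals, 36.3% and 7.26% with the replicate block, 7.93% and 8.46% after quantile normalization, 4.59% and 5.59% with median scaling, and 8.99% and 6.32% without P12 Otx2 CKO replicate 1, the brightest array. With the replicate block, adjusted p-values of genes in these lists went down to 1.05e-109 (Pde6b, limma) on 12 arrays. Values this small need a spread pooled over many genes, so block p-values do not measure the spread of each gene between its arrays. A gene that reached the signal limit only through 1 genotype was selected toward a difference by that limit, though not every such gene was called. Calls of that kind are named or counted for the fit without the block. The block counts hold further ones, such as Vcan in the midkine receptor list and Osmr and Socs3 in the gp130 list.

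The receptors and binding partners of midkine and pleiotrophin were followed in a list of 22 genes. At P12, 9 of the 19 tested were higher in Otx2 CKO retinas and none was lower, with a median log2 change of 0.91 beside 0.39 for all probe sets tested. Gpc2, a glypican that binds midkine, read 215.7, 140.6 and 98.0 in P12 Otx2 CKO retinas and 25.5, 29.7 and 25.1 in P12 control retinas. The groups were apart, with a log2 change of 1.91 (adjusted p = 0.000257, limma), and Gpc2 reached the limit only through its P12 Otx2 CKO mean of 151.4, against 26.77 in control. Nrp1, a co-receptor of semaphorins and Vegf, changed by 1.88 (adjusted p = 0.00219, limma), Lrp1, a large endocytic receptor, by 1.69 (adjusted p = 0.00195, limma) and Sdc3, the neural syndecan that binds pleiotrophin, by 1.39 (adjusted p = 0.00369, limma). Ptprz1, the receptor phosphatase for both ligands, had 0.80 (SE 0.47) and was called with the replicate block but not without it (adjusted p = 0.245, limma, and 0.00697 with the block). Alk, the receptor kinase, had 0.68 and was called at an adjusted p of 0.0452 (limma, and 0.369 after quantile normalization), and Sdc4, another syndecan, had −1.62 and was likewise called with the block but not without it (adjusted p = 0.0505, limma, and 1.54e-09 with the block). The count was 16 higher and 1 lower of 19 with the replicate block, 5 higher and 1 lower of 18 after quantile normalization, and 3 higher of 17 with median scaling. Without P12 Otx2 CKO replicate 1 it was 6 higher of 18, with a median of 0.56. At P1 none of the 11 tested was called.

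In the fibroblast growth factor family beyond Fgf2, 3 of the 6 tested were higher at P12 and none was lower. Fgf13, an intracellular family member that binds sodium channels, read 1878.2, 1789.3 and 1579.5 in P12 Otx2 CKO retinas and 517.3, 882.8 and 686.8 in P12 control retinas. Those groups were apart, with a log2 change of 1.34 (adjusted p = 0.00162, limma). Fgf14, of the same subfamily, changed by 0.93 (adjusted p = 0.00964, limma) and reached the limit only through P12 Otx2 CKO retinas, and the secreted Fgf9 by 0.91 (adjusted p = 0.0128, limma, and 0.0879 after quantile normalization). The count was 1 of 5 after quantile normalization and 0 of 5 with median scaling. Of the FGF receptors and feedback genes 6 of 13 were higher and none was lower. They were Il17rd (1.28), Spry1 (1.21) and Spred2 (1.16), which restrain FGF signaling, and the receptors Fgfr4 (1.14), Fgfr2 (1.05) and Fgfr1 (1.04). Il17rd, Fgfr4 and Fgfr2 reached the limit only through P12 Otx2 CKO retinas, and of the 10 genes that reached it in both genotypes 3 were higher. Of this list 2 of 9 were called higher after quantile normalization, with a median of 0.04, and 1 of 10 with median scaling. Without P12 Otx2 CKO replicate 1 the median was 0.45, against 0.92 with all arrays.

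In the endothelin list, 1 of 3 genes tested was higher at P12, the converting enzyme Ece2, with a log2 change of 1.10 (adjusted p = 0.00324, limma). Ece2 reached the limit only through P12 Otx2 CKO retinas, and none of the 2 genes tested after quantile normalization or median scaling was called. All 3 were called with the replicate block. Among the gp130 receptors and the STAT3 pathway, through which Lif and Cntf act, 1 of 13 was higher and 1 lower. So few calls cannot be told apart from the 14.1% called higher over all probe sets. Socs2, a suppressor of cytokine signaling, read 851.0, 338.2 and 412.9 in P12 Otx2 CKO retinas and 106.0, 71.7 and 101.0 in P12 control retinas. Its groups were apart, with a log2 change of 2.24 (adjusted p = 0.000335, limma). Pias3, an inhibitor of STAT3 that also acts in photoreceptors, fell by 2.06 (adjusted p = 0.000811, limma). Lifr, the Lif receptor, had −1.09 (adjusted p = 0.0871, limma) and was called with the block (7.84e-05) and after quantile normalization (0.0265). Il6st, which encodes gp130, had 0.51 (adjusted p = 0.0906, limma, and 0.0671 with the block). With the replicate block 6 of these 13 were higher and 2 lower, beside 36.3% and 7.26% of all probe sets. The 1 gp130 cytokine tested, Ctf1, had 0.65 (adjusted p = 0.104, limma, and 0.00841 with the block) and reached the limit only through P12 Otx2 CKO retinas.

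Of the neurotrophins and their receptors 2 of 8 were higher, the sorting receptor Sorcs1 with 1.36 (adjusted p = 0.00476, limma) and the receptor kinase Ntrk3 with 0.88 (adjusted p = 0.0381, limma, and 0.154 after quantile normalization, with the call lost under 15 of 23 alternatives). Ntrk2, the Bdnf receptor, had −0.11 (SE 0.24, adjusted p = 0.748, limma). The median of this list was 0.25, below that of all probe sets, and 0.12 without P12 Otx2 CKO replicate 1. The count was 1 of 8 after quantile normalization, with median scaling and without that array. In the IGF system 5 of 10 were higher and none was lower. Igf2, the second IGF ligand, read 1001.8, 804.0 and 784.6 in P12 Otx2 CKO retinas and 305.0, 405.6 and 300.1 in P12 control retinas. The groups were apart, with a log2 change of 1.32 (adjusted p = 0.000749, limma). The binding proteins Igfbp4 (1.09), Igfbp5 (1.07) and Igfbp3 (0.78) and the adaptor Irs1 (0.94) were the others, and Igf1r, the receptor, had 0.18 (SE 0.40, adjusted p = 0.767, limma). Igfbp3 reached the limit only through P12 Otx2 CKO retinas. Of the IGF genes 3 of 9 were called after quantile normalization, 0 of 9 with median scaling and 3 of 10 without P12 Otx2 CKO replicate 1. Igfbp4 lost the call without P12 control replicate 1 or 3 or P12 Otx2 CKO replicate 1, with 0.89 to 1.01.

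Other trophic factors known in the retina went both ways, with 5 of 17 higher and 3 lower at P12. Nxnl2 and Nxnl1, which encode the rod-derived cone viability factors, were the lowest. Nxnl2 read 35.7, 44.9 and 13.4 in P12 Otx2 CKO retinas and 1173.6, 2439.0 and 1615.9 in P12 control retinas. The log2 change was −5.22 for Nxnl2 (adjusted p = 8.38e-07, limma) and −3.06 for Nxnl1 (adjusted p = 2.33e-06, limma). Nrtn, the GDNF family ligand neurturin, fell by 2.08 (adjusted p = 0.00121, limma), while its signaling receptor Ret was higher by 1.65 (adjusted p = 0.00312, limma). Pdgfra, which marks astrocytes and their precursors in the retina, was higher by 1.81 (adjusted p = 0.00107, limma). The remaining ones that rose were Egfr (1.64), Grn (1.31), which encodes progranulin, and Met (1.18), the HGF receptor. Egfr and Met reached the limit only through P12 Otx2 CKO retinas, and Nxnl2, Nxnl1 and Nrtn only through P12 control retinas. With the block 9 of 17 were higher, and 3 of 15 with median scaling and 3 of 16 without P12 Otx2 CKO replicate 1.

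**Figure D5:**
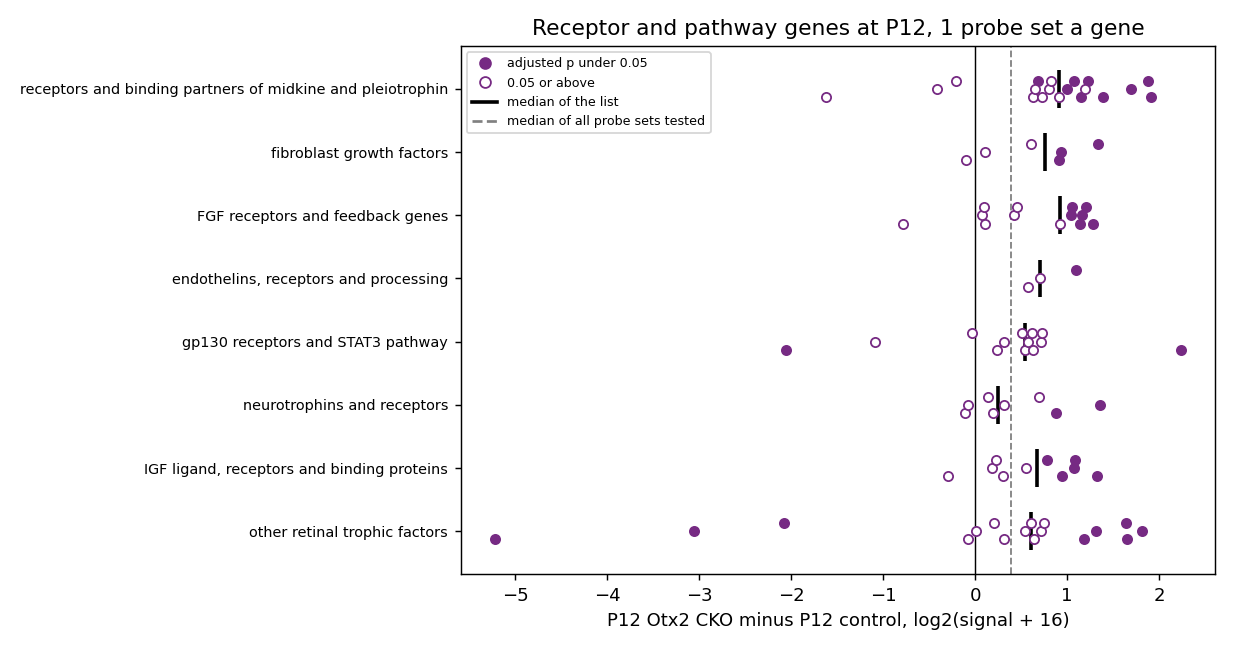
Difference between P12 Otx2 CKO and P12 control retinas on the log2(signal + 16) scale for the tested genes of 8 lists, 1 probe set a gene. Filled points had an adjusted p under 0.05 (limma), black bars are the list medians, and the dashed line is the median of all probe sets tested, 0.39. The lowest points are Nxnl2 at −5.22, Nxnl1 at −3.06, Nrtn at −2.08 and Pias3 at −2.06, and the highest is Socs2 at 2.24.

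Markers of several retinal cell types moved in the same comparison. All 10 photoreceptor markers tested at P12 were lower, with summed signals of 1034.3 to 2185.9 in Otx2 CKO retinas and 31024.1 to 45326 in control retinas, and 5 of 6 bipolar cell markers were lower. Of these calls 2 photoreceptor and 3 bipolar genes reached the limit only through control retinas. All 4 retinal progenitor markers tested were higher, with sums of 953.8 to 1193.8 in P12 Otx2 CKO retinas and 294.3 to 358.1 in P12 control retinas over the 7 of 8 genes that have a probe set. Of these 4 markers Neurog2 and Sfrp2 reached the limit only through P12 Otx2 CKO retinas, and 2 of the 4 were called after quantile normalization and with median scaling. All 11 microglia and macrophage markers tested were higher, with sums of 3648.5 to 4640.1 in P12 Otx2 CKO retinas and 634.6 to 1223.8 in P12 control retinas over 13 of 14 genes. Of the 11, 5 reached the limit only through P12 Otx2 CKO retinas, and 10 of 10 were called after quantile normalization. Of the Muller glia markers 6 of 11 were higher, with sums of 20446.6 to 25179.3 in P12 Otx2 CKO retinas and 9222.6 to 18726.4 in P12 control retinas, and 3 of 11 were called after quantile normalization and 2 of 11 with median scaling. Of the amacrine cell markers 4 of 9 were higher, with sums of 8575.9 to 12516.7 in P12 Otx2 CKO retinas and 5349.5 to 8316.4 in P12 control retinas, and 3 of 8 were called after quantile normalization and 1 of 8 with median scaling. Th, an amacrine marker called higher, reached the limit only through P12 Otx2 CKO retinas. Of the pigment epithelium markers 3 of 6 were higher, with overlapping sums of 2384.5 to 4554.2 in P12 Otx2 CKO retinas and 799.8 to 2715 in P12 control retinas, and 2 of the 3 reached the limit only through P12 Otx2 CKO retinas. The sums are of deposited signals, on arrays of unequal brightness. No marker of these lists was at 0 on any array. The part of these markers in the differences of Mdk, Ptn and Igf1 was not tested.

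The genes most like each member were taken by Pearson correlation of quantile-normalized signals over the 12 arrays, among 10857 genes, as a description. The points share their groups and the brightness of each array. For Mdk these were Nt5dc2 (0.987), Fat1 (0.987), an atypical cadherin, Cnn3 (0.986), an actin-binding calponin, and Rps26 (0.984), a ribosomal protein. Fat1 read 1015.5, 838.9 and 751.2 in P12 Otx2 CKO retinas and 223.8, 337.3 and 230.6 in P12 control retinas, a ratio of the means of 3.29 with the groups apart as for Mdk. The ratio was lower for the others, with 2.94 for Nt5dc2, 1.71 for Cnn3 and 1.61 for Rps26. The P12 groups of Rps26 overlapped. For Ptn 1448254_at they were Rgs13 (0.961), a regulator of G protein signaling, Ankrd44 (0.944), Atl1 (0.94), an atlastin of the endoplasmic reticulum, and Etfa (0.939), a mitochondrial electron carrier. Rgs13 was near background except in P12 Otx2 CKO retinas, with 166.9, 42.2 and 52.3 there and 15.8, 5.3 and 7.3 in P12 control retinas. For the brightest Igf1 probe set the values were 0.98 for Gdap1 and 0.976 each for Hccs, Ptpn4 and Rabgap1, genes that shared the low replicate 2 of both P12 groups. For Bdnf 1422169_a_at the highest were Mtmr1 (0.932) and Pik3cd (0.927), which were highest in replicate 1 of both P12 groups.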

How the data were processed

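Per the methods of the study, the authors prepared biotin-labeled cRNA from total retinal RNA, hybridized it to GeneChip Mouse Genome 430 2.0 arrays and determined signal intensity with GeneChip Operating Software 1.4. The deposited intensity values are linear. A scaling target and a normalization between arrays are not given in the sources used here, so differences in brightness between arrays remain in them. Of 45101 probe sets 64 controls were left out. Symbols came from the platform annotation (34945 with 1 symbol, 34741 of them matched by Entrez ID, 932 with several and 9160 with none). Groups follow the sample titles, and some free-text descriptions name the other genotype.

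log2(signal + 16) was fitted with limma 3.58.1 (lmFit, eBayes with a trend) in R 4.3.3, with 12 arrays, 4 groups and no block. Probe sets with a mean of at least 50 in a compared group were tested, with Benjamini-Hochberg adjustment over all of them and a threshold of 0.05. The fit was tested on simulated data with independent noise on each array. The simulated arrays had no deviation shared by replicate number and no difference in brightness, so that test does not cover these features of the real arrays. Of a gene in a list the brightest probe set was used. The rule for named genes took all member probe sets, up to 4 genes a list by size of change among those past the threshold at P12, and the 4 genes most like each member. Receptors and genes that were named beyond this rule (Ptprz1, Alk, Sdc4, Fgfr1, Fgfr2, Lifr, Il6st, Ctf1, Ntrk2, Igf1r, Igfbp3, Ret, Egfr, Grn and Met) were chosen after their values were seen. Members and lists were chosen with earlier results of these data known. Same-numbered arrays, by the number in the titles, deviated together from their group means at P12 (correlations of 0.82, 0.88 and 0.54). At P1 these correlations were weak (0.18, 0.14 and 0.25). Whether same-numbered arrays were processed together is not stated. The main fit leaves this shared deviation out, and the replicate block is given as an alternative. Alternatives changed scaling, offset, signal limit, block, samples and moderation. The p-values with the block rest on a spread pooled over genes and are firmer in look than 12 arrays allow.

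The marker lists also held horizontal, ganglion, astrocyte, blood vessel, lens and connective tissue genes. Their counts at P12 were 1 higher and 2 lower of 4 for horizontal cells, 2 higher of 7 for ganglion cells, 2 higher of 5 for astrocytes and 1 higher and 1 lower of 6 for blood vessels. Of these calls, Onecut2 (horizontal, higher) and S100b (astrocyte, higher) reached the limit only through P12 Otx2 CKO retinas. Lhx1 (horizontal, lower) reached it only through P12 control retinas. No lens gene was tested, and the 1 connective tissue gene tested was not called. After quantile normalization the counts were 1 higher and 1 lower of 3, 1 higher of 7, 1 higher of 4 and 1 higher and 1 lower of 5.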

Additional observations from a re-analysis of the deposited data

Results flagged for a closer look

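For 3 probe sets the genotype difference was larger at P12 than at P1, past the threshold in limma. This contrast holds the P12 comparison that had a part in the choice, so it is a description. The P12 difference minus the P1 difference was 2.49 (SE 0.47) for Ptn 1448254_at, 1.95 (SE 0.41) for Ptn 1416211_a_at and 1.4 (SE 0.33) for Igf1 1452014_a_at. At P1 the Ptn groups overlapped on both probe sets, and Igf1 1452014_a_at read at most 11.8 on every P1 array. Ptn 1448254_at passed under every alternative tried. Ptn 1416211_a_at did not pass under 6 of 22 alternatives, with median scaling (1.42) and without P1 control replicate 1, 2 or 3, P1 Otx2 CKO replicate 2 or P12 control replicate 3 (1.70 to 1.98). Igf1 1452014_a_at did not pass under 12 of 22, among them quantile normalization (0.84), median scaling (0.91) and 7 that left out 1 array (1.31 to 1.47). As the P12 comparison had a part in the choice of these genes, the 3 differences are not independent evidence.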

How the results depend on the processing

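The replicate block raised the number of probe sets of these genes called higher at P12 to 8, beside 7757 of 21390 of all. It raised the number for the difference between ages to 7, beside 6224 of 21530. Each of these 2 block counts includes Ptn 1443173_at or Bdnf 1422168_a_at, or both, which reached the limit only through their mean in P12 Otx2 CKO retinas. Each age fitted alone gave 3 at P12, beside 377 higher and 438 lower of 21390 of all. Quantile normalization within each age together with the replicate block, chosen after seeing the data, gave 8, beside 4899 higher of 21166. Leaving out 1 array gave 4 to 6 at P12, beside 1536 to 5004 of all called higher, of 19973 to 22378 tested. For the difference between ages it gave 1 to 3, beside 177 to 2799 of 20132 to 22516. The 1 came without P1 control replicate 1, 2 or 3, P1 Otx2 CKO replicate 2 or P12 control replicate 3. For higher with age in control it gave 2 to 7 (2 without P12 control replicate 1), beside 14461 to 16127 of 17816 to 18880. Median scaling gave 1 for the difference between ages, beside 102 higher of 18929. For age in control, quantile normalization gave 0 higher and 2 lower, Mdk among them as a description, beside 3437 higher and 3465 lower of all. Median scaling gave the same counts, beside 2192 higher and 3758 lower of all. No signal filter gave 10 higher of 14, beside 27030 of 45037, and a limit of 100 gave 2, beside 10907 of 12662. No call at P1 changed for these genes with the block, and the block changed no call of theirs besides those in these counts and the age change of Igf1 1434413_at (adjusted p = 2.38e-07, limma) and Igf1 1437401_at (0.000322).

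Signs turned for these values. The difference of Mdk between P12 and P1 Otx2 CKO retinas was 1.18 on deposited signals, −1.01 after quantile normalization and −1.23 with median scaling. The P1 change of Ptn 1416211_a_at was −0.01 with an offset of 1 and ran from −0.13 to 0.26 when 1 array was left out. The age change in control was −0.26 after quantile normalization and −0.43 with median scaling for Ptn 1416211_a_at, −0.71 and −0.88 for Ptn 1448254_at, −0.05 and −0.33 for Igf1 1434413_at, and −0.47 and −0.74 for Igf1 1437401_at. With 1 array left out, Bdnf 1422169_a_at ran from −0.55 (without P12 Otx2 CKO replicate 1) to 0.40 (without P12 control replicate 1) at P12 and from −0.58 to 0.37 for its difference between ages, without the same arrays. Causes were not tested. Each age fitted alone also lost the P12 calls of Sdc3, Fgf9, Fgf14, Ntrk3, Il17rd, Spry1, Spred2, Fgfr4, Ece2, Sorcs1, Igf2, Igfbp4, Igfbp5 and Irs1. These are among the genes that the naming rule took from the receptor and trophic factor lists. Other genes of those lists were not followed in that fit, and the cell type markers are left out here. Median scaling left 3 of 17 midkine receptors, 0 of 5 FGF genes, 1 of 10 FGF receptors and 0 of 9 IGF genes called higher, so that Fgf9, Fgf13, Igf2, Irs1, Igfbp4 and Igfbp5 were not called there. Signals near background limit what Fgf2, Edn2 and Lif can show.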
